A study of Homo sapiens with 4 samples.

Results

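The Wnt ligands, their receptors, co-receptors and secreted antagonists, and the feedback and transcription factors of the pathway were followed in H1299 cells with and without CRISPR/Cas9 targeting of TTC28. A gene was included when the table listed it as protein coding and its symbol was WNT or FZD followed by a digit, or was 1 of 18 further symbols (DKK1 to DKK4, NKD1, NKD2, AXIN1, AXIN2, LEF1, TCF7, TCF7L1, TCF7L2, LRP5, RNF43, SFRP1, CTNNB1, LGR4 and LGR5). The rule found 47 of 58735 genes, of which 19 are ligands, 10 Frizzled receptors, 4 co-receptors or receptor controls, 5 secreted antagonists, 5 cytoplasmic components and 4 nuclear factors. H1299 is an established human non-small cell lung cancer line. RNA was sequenced from 2 libraries of wild-type cells and 2 of TTC28 knockout cells, all from untreated cultures. The labels do not say whether the knockout is 1 clone or a pool, whether the wild-type cells carried a control guide, or whether replicates are separate cultures, so p-values measure only the spread between these libraries, which may be technical.

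Wnt proteins are secreted lipid-modified ligands that bind a Frizzled receptor together with an LRP co-receptor. In the canonical branch this stops a destruction complex built on AXIN and APC from marking beta-catenin for degradation, and beta-catenin then enters the nucleus and works with TCF and LEF factors. Several genes that this complex turns on, among them AXIN2, NKD1, RNF43, LEF1 and DKK1, restrain or reinforce the pathway, and they are widely used as readouts of it. Other ligands, such as WNT5A and WNT5B, are known mainly for branches that act on cell polarity and calcium without beta-catenin.

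The libraries held 25120500 to 28885443 counts over all genes. TTC28 itself was at 4.88 and 5.44 FPKM (fragments per kilobase of gene model, scaled for sequencing depth) in wild-type and 2.96 and 2.99 FPKM in knockout libraries, 1.73-fold lower (edgeR's quasi-likelihood test, Benjamini-Hochberg adjusted p = 2.78e-06), so the transcript was reduced but present. Counts per gene carry no information on the edited bases. Of 6 epithelial markers, KRT8, KRT18 and KRT7 reached 1 FPKM in a library and CDH1, KRT19 and EPCAM did not. None of 8 lung lineage markers, NKX2-1 and the surfactant genes included, reached 1 FPKM, nor did any of 4 immune, 4 endothelial and 4 fibroblast markers. Over those 4 fibroblast markers the summed level was 0.146 to 0.256 FPKM in wild-type and 0.429 to 0.464 FPKM in knockout libraries. COL1A1 made up most of it (means 0.174 and 0.437 FPKM). DCN (0.0231 and 0.00757 FPKM) and COL1A2 (0.00342 and 0.00184 FPKM) were lower in the knockout, and LUM had 0 counts. Over the endothelial markers the sum was 0.107 to 0.115 and 0.318 to 0.319 FPKM. KDR held most of that difference (means 0.0197 and 0.201 FPKM), with PECAM1 at 0.0657 and 0.0719 FPKM. Over the immune markers the sum was 0.0503 to 0.0771 and 0.00783 to 0.0187 FPKM. The part of these markers in the results was not tested. In such bulk RNA, fewer cells of a kind and less RNA per cell cannot be told apart.

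A gene was tested when at least 2 of the 4 libraries had at least 1 FPKM, and 21 of the 47 Wnt members passed. A further 21 had counts but stayed below that level, and 5 (WNT3A, WNT8A, WNT9B, FZD10 and DKK4) had 0 counts in every library. Of the 21 tested members, 7 rose, 5 fell and 9 did not pass the threshold of 0.05 on the adjusted p of edgeR's quasi-likelihood test. Across all 13079 tested genes 50.3% were called, 25.1% higher and 25.2% lower in the knockout, so the 57.1% called here lay near the background. On a TPM scale, which sets the FPKM of each library to the same sum, the median of all tested genes moved by -0.16 on the log2 scale and 25.5% of called genes were higher, against 49.9% in the main fit; scaled to total counts 40.0% were higher. The members then split into 5 higher and 7 lower on the TPM scale, and 6 higher and 7 lower by total counts. With the filter lowered to 0.1 FPKM 29 members were tested and again 7 were higher and 5 lower, against 35% of all genes called. At least 2-fold changes were seen in 4 members (SFRP1, DKK1, DKK3 and NKD2), against 5.21% of all tested genes. Wild-type and knockout libraries did not overlap in scaled counts for 19 of the 21, against 75.5% of all tested genes. NKD2 and SFRP1 passed the filter through the wild-type libraries, where they were high, with 1 and 0 knockout libraries at the level required. Of the 19 that passed in all 4 libraries, 7 rose and 3 fell. The median log2 fold change over the 21 was 0.19, against 0.00 over all tested genes.

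**Figure D1:**
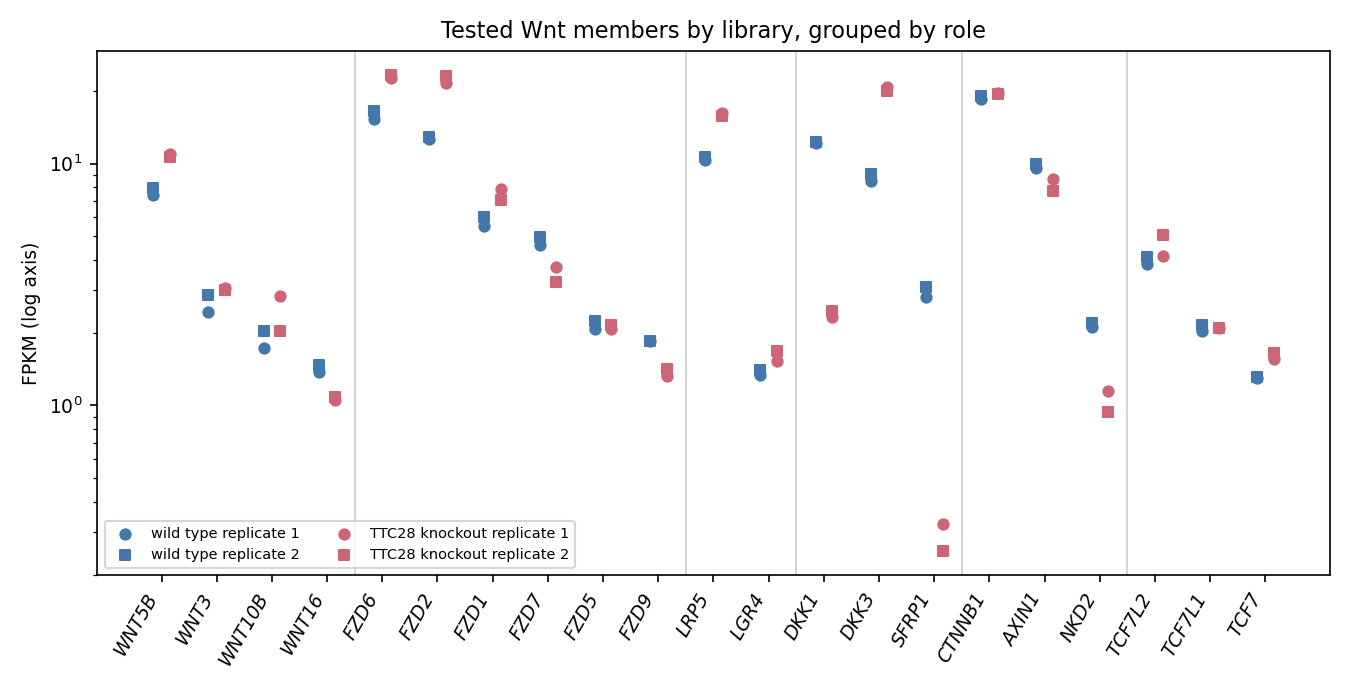
FPKM on a log axis for each of the 21 tested Wnt members in each of the 4 libraries, blue for wild type and red for TTC28 knockout, with circles for replicate 1 and squares for replicate 2. Grey lines separate ligands, Frizzled receptors, co-receptors, secreted antagonists, cytoplasmic components and nuclear factors. SFRP1 and DKK1 lie far lower and DKK3 far higher in the knockout libraries, while CTNNB1 lies at nearly the same level in all 4.

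The secreted antagonists changed most in size, and in opposite directions. DKK1, which binds LRP co-receptors and blocks canonical signalling, had 702 and 736 counts in wild-type replicates 1 and 2 and 143 and 133 in knockout replicates 1 and 2. Its mean level was 12.2 ± 0.0730 FPKM (SD, n = 2) for wild-type libraries and 2.40 ± 0.101 FPKM (SD, n = 2) for the knockout, a gap far wider than either pair of libraries. SFRP1, which binds Wnt proteins outside the cell through a Frizzled-like domain, was at 2.81 and 3.08 FPKM in wild-type libraries (351 and 399 counts) and 0.324 and 0.249 FPKM in knockout libraries (43 and 29 counts). Both knockout libraries were thus well below both wild-type libraries. DKK3, a family member that differs from DKK1 in that it is not an established LRP antagonist, went the other way. Its libraries read 8.49 and 9.07 FPKM in wild type and 20.7 and 19.9 FPKM in the knockout, with 1125, 1250, 2915 and 2454 counts.

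In edgeR's quasi-likelihood test DKK1 was 5.08-fold lower (log2 fold change -2.35, SE 0.110), with adjusted p = 4.91e-09. SFRP1 was 10.2-fold lower (-3.34, SE 0.173), with adjusted p = 1.22e-08. On the log2(FPKM + 1) scale of limma, which understates changes of low genes, the SFRP1 value was -1.62, still past the threshold. DKK3 rose by 1.21 (SE 0.0668), 2.31-fold, with adjusted p = 2.36e-08. These 3 calls held in each of the alternative settings in which the gene was tested (17 for DKK1 and DKK3, 16 for SFRP1). DKK1 shares 9.61% of its exonic bases with PRKG1-AS1 on the opposite strand, which had 15, 18, 8 and 7 counts in the same order of libraries. No strand setting of the counting is given in the sources read here, and reads of that stretch cannot be assigned to either gene.

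Because DKK1 and SFRP1 fell and DKK3 rose, the summed level of the 5 genes grouped as antagonists stayed in a narrow range on the FPKM scale while its makeup changed. That sum counts DKK3, which is not an established LRP antagonist, so it is a sum of transcripts and not a measure of blocking activity. It was taken on the FPKM scale only. On the TPM scale the median of all tested genes moved by -0.16 (log2), which would lower knockout sums against wild type. The 5 antagonists together came to 23.5 and 24.4 FPKM in wild-type and 23.3 and 22.6 FPKM in knockout libraries. DKK1 made up 51.7% and 50.2% of that sum in wild-type and 9.97% and 10.9% in knockout libraries. DKK3 made up 36.2% and 37.2% in wild-type and 88.6% and 87.9% in knockout libraries. The ratio of DKK3 to DKK1 was 0.699 and 0.741 in wild-type and 8.89 and 8.05 in knockout libraries, on the FPKM scale, which allows levels of different genes to be set side by side. DKK2 had 3, 2, 1 and 2 counts and DKK4 had 0 in all 4 libraries, which leaves DKK1, DKK3 and SFRP1 as the antagonists of the rule with more than traces of transcript.

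**Figure D2:**
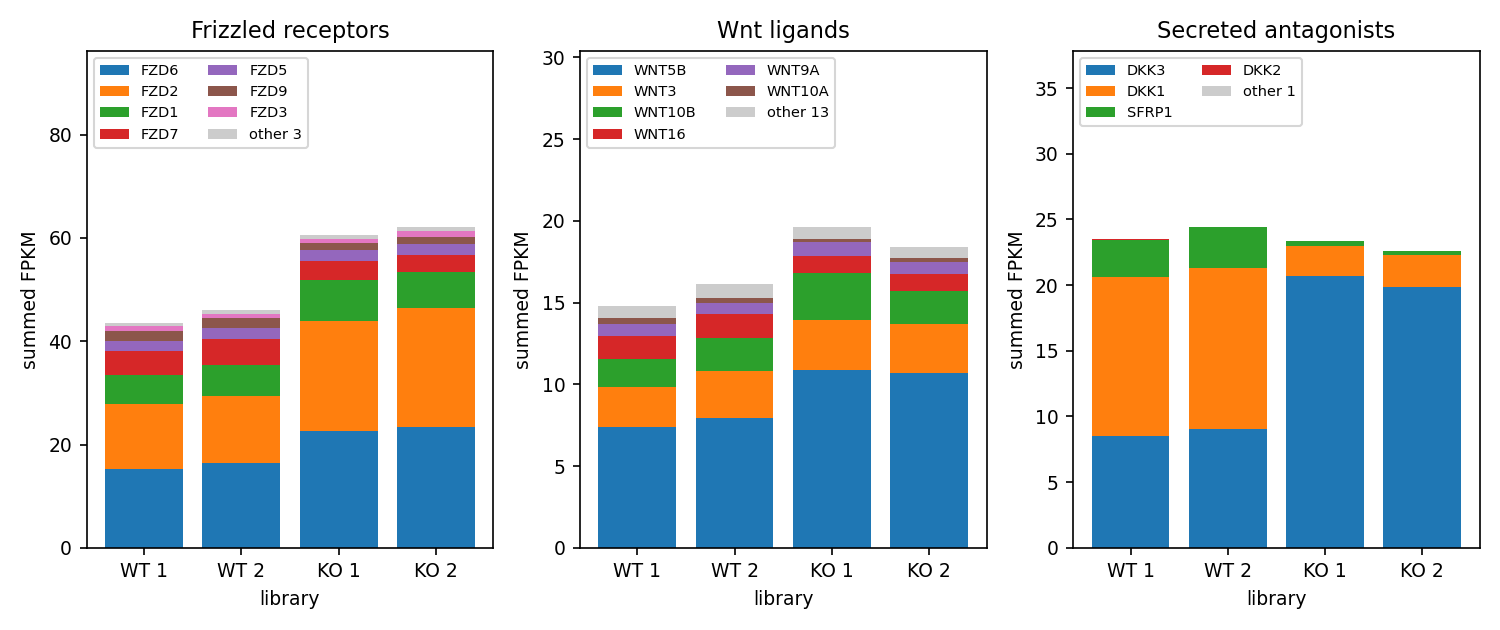
Stacked bars of summed FPKM (linear axis from 0) of the Frizzled receptors, the Wnt ligands and the secreted antagonists in each of the 4 libraries; grey holds the remaining members of a family. The antagonist bars are of similar height, 22.6 to 24.4 FPKM, with DKK1 the largest piece in wild type and DKK3 in the knockout, while the Frizzled bars are taller in the knockout.

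The start-site windows of 4 changed members are shown because they include the largest fall and the largest receptor-side rise for which RefSeq (GRCh38.p14) had an entry, with another member of each direction. Each window is the 250 bases before the transcription start, 5′ to 3′ on the gene's strand, with CpG dinucleotides in capitals. DKK1 lies at chr10:52314031-52314280 (plus strand), NKD2 at chr5:1008552-1008801 (plus), LRP5 at chr11:68312341-68312590 (plus) and FZD1 at chr7:91264183-91264432 (plus).
DKK1: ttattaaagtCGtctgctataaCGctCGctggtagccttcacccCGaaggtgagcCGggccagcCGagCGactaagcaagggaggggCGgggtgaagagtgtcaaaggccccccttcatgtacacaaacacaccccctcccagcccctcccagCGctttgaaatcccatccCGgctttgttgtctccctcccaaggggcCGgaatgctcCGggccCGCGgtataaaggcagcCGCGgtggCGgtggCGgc
NKD2: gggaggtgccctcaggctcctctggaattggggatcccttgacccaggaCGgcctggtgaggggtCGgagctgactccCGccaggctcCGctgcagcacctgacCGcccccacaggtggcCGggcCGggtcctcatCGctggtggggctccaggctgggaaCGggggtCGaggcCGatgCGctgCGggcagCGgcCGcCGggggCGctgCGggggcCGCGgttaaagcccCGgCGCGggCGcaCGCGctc
LRP5: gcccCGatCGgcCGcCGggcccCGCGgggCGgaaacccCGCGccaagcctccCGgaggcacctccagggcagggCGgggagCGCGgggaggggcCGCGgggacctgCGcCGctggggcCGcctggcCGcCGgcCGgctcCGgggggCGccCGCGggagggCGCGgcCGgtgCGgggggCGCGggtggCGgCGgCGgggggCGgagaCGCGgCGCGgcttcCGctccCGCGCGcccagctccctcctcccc
FZD1: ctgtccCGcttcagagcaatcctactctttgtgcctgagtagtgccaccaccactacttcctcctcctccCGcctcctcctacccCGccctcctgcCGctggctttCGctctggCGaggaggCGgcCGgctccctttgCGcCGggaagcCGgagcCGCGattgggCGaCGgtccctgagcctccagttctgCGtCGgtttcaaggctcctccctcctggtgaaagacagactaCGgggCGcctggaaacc

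DKK1 and FZD1 had 18 and 19 CpG dinucleotides and 62.8% and 65.2% G or C, NKD2 had 26 and 75.6%, and LRP5 had 43 and 87.2%. Over all 35116 windows of the same length the medians were 11 CpG and 58.0%, and over the 39 windows of 32 Wnt members 23 CpG and 68.8%. The letters CTTTGAT, a core that TCF and LEF factors are known to bind, were searched on both strands (ATCAAAG on the other) and were in 0 of the 39 member windows and in 2.26% of all windows. TATAAA, searched on both strands, was in 4 of the 39 (DKK1, FZD8, TCF7 and WNT5B) and in 10.7% of all windows. In DKK1 it begins 30 bases before the start. A match is a match of letters only, and its absence says only that these letters are not in this window. FZD2, FZD6, FZD7, DKK3, SFRP1, AXIN2 and NKD1 have no window in the table used.

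Among the Frizzled receptors, which bind the ligands at the cell surface, the highest in wild type rose and the others fell or did not pass. FZD6 and FZD2 had the highest levels in every library. FZD2 was at 12.6 and 12.9 FPKM in wild-type and 21.4 and 23.0 FPKM in knockout libraries, and FZD6 at 15.3 and 16.5 against 22.5 and 23.3 FPKM. FZD1 was at 5.54 and 5.995 FPKM in wild-type and 7.87 and 7.06 FPKM in knockout libraries. For all 3 receptors both knockout libraries lay above both wild-type libraries. FZD7 was the receptor that fell, from 4.62 and 4.98 FPKM to 3.73 and 3.24 FPKM, again without overlap.

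FZD2 rose 1.75-fold (log2 fold change 0.80, SE 0.0820, edgeR adjusted p = 4.49e-06), FZD6 1.45-fold (0.53, SE 0.0658, adjusted p = 2.30e-05) and FZD1 1.30-fold (0.38, SE 0.0802, adjusted p = 0.00162). FZD7 was 1.37-fold lower (-0.46, SE 0.107, adjusted p = 0.00305). On the TPM scale in limma FZD1 was at 0.20 and did not pass (adjusted p = 0.125; 2.18e-05 to 0.125 over its alternatives), while FZD2, FZD6 and FZD7 kept their calls in each alternative in which they were tested. FZD5 and FZD9 did not pass. FZD5 was at 2.07, 2.24, 2.07 and 2.16 FPKM in the order wild-type replicates 1 and 2, knockout replicates 1 and 2, and the groups overlapped. FZD9 was at 1.84, 1.85, 1.32 and 1.42 FPKM, with both knockout libraries lower (-0.43, SE 0.182, adjusted p = 0.0637), and passed under 4 of 16 alternatives. FZD1, FZD2 and FZD7 are close relatives, but at most 2.67% of their distinct runs of 50 bases were shared with any other gene (0.463% for FZD1 and 0.525% for FZD7), so few reads could be placed in more than 1 of them.

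The summed Frizzled level was 43.5 and 46.0 FPKM in wild-type and 60.5 and 62.1 FPKM in knockout libraries. FZD2 and FZD6 accounted for most of this: FZD2 took 28.99% and 28.0% of the sum in wild-type and 35.5% and 37.1% in knockout libraries. FZD7 took 10.6% and 10.8% in wild-type and 6.17% and 5.21% in knockout libraries. The ratio of FZD2 to FZD7 was 2.73 and 2.59 in wild-type and 5.75 and 7.12 in knockout libraries. The Frizzled sum was taken on the FPKM scale only. The shift of all tested genes on the TPM scale (median -0.16, log2) would make its rise smaller.

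The remaining Frizzled genes were below the filter. FZD3 had 336, 332, 328 and 359 counts, with 1 library at 1 FPKM or more. FZD4 had 100, 123, 137 and 141 counts, and 18.9% of its exonic bases lie opposite PRSS23, which had 1440 to 2460 counts, so its reads are uncertain. Neither passed with the filter lowered to 0.1 FPKM (edgeR adjusted p = 0.726 and 0.147). FZD8 had 10 and 12 counts in wild-type and 0 and 0 in knockout libraries, at least 7.16-fold lower when the knockout is set to the floor of 3 counts over the group. Without a filter on low values edgeR called it (adjusted p = 0.000188). FZD10 had 0 counts throughout.

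LRP5, the co-receptor that carries the Wnt signal with a Frizzled, rose. Its libraries read 10.3 and 10.6 FPKM in wild type (1669 and 1778 counts) and 16.2 and 15.7 FPKM in the knockout (2784 and 2358 counts). Both knockout libraries were above both wild-type libraries, 1.53-fold higher in the fit (log2 fold change 0.61, SE 0.0626, edgeR adjusted p = 4.76e-06). LGR4, a receptor for R-spondins, which strengthen Wnt signals by shielding Frizzled receptors from RNF43 and ZNRF3, was at 1.34, 1.41, 1.53 and 1.67 FPKM and did not pass (0.23, SE 0.125, adjusted p = 0.149). LGR5, its relative and a stem cell marker, had 5, 0, 4 and 2 counts. RNF43, the ubiquitin ligase that removes Frizzled receptors, had 1, 0, 7 and 4 counts, and 71.0% of its distinct runs of 50 bases occur in another gene, so no direction is given.

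Of the ligands, 4 of 19 were tested, and 1, WNT5B, rose. WNT5B was at 7.40 and 7.95 FPKM in wild-type and 10.9 and 10.7 FPKM in knockout libraries, 1.41-fold higher (log2 fold change 0.49, SE 0.0781, edgeR adjusted p = 0.000169). It was the most abundant ligand in each library, with 50.1% and 49.2% of the summed ligand FPKM in wild-type and 55.6% and 58.0% in knockout libraries. On the TPM scale in limma it was at 0.32 and kept its call. WNT3, a canonical ligand, was at 2.44, 2.87, 3.05 and 2.99 FPKM (0.19, SE 0.117, adjusted p = 0.193). WNT10B, another canonical ligand, was at 1.73 and 2.02 against 2.83 and 2.02 FPKM. The high value was that of knockout replicate 1 alone, and WNT10B did not pass (0.38, SE 0.183, adjusted p = 0.103), although it did when knockout replicate 2 was left out (0.59, adjusted p = 0.0161; 0.0161 to 0.912 over its alternatives). WNT16 was at 1.38, 1.47, 1.06 and 1.08 FPKM (-0.42, SE 0.176, adjusted p = 0.0637).

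Among the 15 ligands below the filter, the most counted were WNT2B (94, 97, 100 and 58), WNT9A (78, 73, 98 and 70) and WNT10A (31, 25, 17 and 22). None of the 3 passed with the filter lowered to 0.1 FPKM (edgeR adjusted p = 0.403, 0.583 and 0.346). Of the exonic bases of WNT2B, 21.2% lie opposite ST7L, which had 275 to 393 counts, so its reads are uncertain. WNT7A had 11 and 6 counts in wild-type and 0 and 0 in knockout libraries, at least 5.53-fold lower against the floor of 3 counts over the group. WNT7B had 6 and 14 counts against 3 and 1, a scaled ratio of knockout to wild type of 0.205 (95% exact Clopper-Pearson interval 0.0509 to 0.611, counting error only). Without a filter on low values edgeR called both (adjusted p = 0.00229 and 0.0468). WNT2 (5, 1, 0 and 0 counts), WNT5A (0, 0, 2 and 4), WNT6 (1, 5, 8 and 7), WNT8B (5, 10, 4 and 5), WNT11 (6, 6, 4 and 3), WNT4 (8, 7, 9 and 8) and WNT1 (0, 1, 1 and 1) did not pass there. WNT5A, the relative of WNT5B that is better known in cell polarity, thus held no more than 4 counts in a library. A count of 0 over the libraries of a group allows up to 3 counts.

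Among the cytoplasmic components AXIN1 and NKD2 fell and CTNNB1 did not pass. CTNNB1, which encodes beta-catenin, was at 18.5, 18.9, 19.5 and 19.3 FPKM, and its log2 fold change was 0.06 (SE 0.0592, edgeR adjusted p = 0.429), with the sign turned by total-count scaling (-0.0065) and on the TPM scale (-0.11). AXIN1, the scaffold of the destruction complex, was at 9.56, 9.96, 8.61 and 7.70 FPKM. Both knockout libraries lay below both wild-type libraries, and AXIN1 fell by 0.26 on the log2 scale (SE 0.0713, adjusted p = 0.0091). That call was lost without wild-type replicate 2 (-0.23, adjusted p = 0.0779) and without knockout replicate 2 (-0.18, adjusted p = 0.0536; 0.000805 to 0.104 over its alternatives). NKD2, which binds Dishevelled and restrains the pathway, was at 2.12 and 2.20 FPKM in wild-type (160 and 173 counts) and 1.14 and 0.937 FPKM in knockout libraries (92 and 66 counts). It fell by 1.04 (SE 0.176, adjusted p = 0.000281), with no overlap between the groups, in a stretch of chromosome 5 whose tested genes were lower as well (median of its neighbours -0.70), and it did not pass once that median was removed (-0.35, adjusted p = 0.122).

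Of the feedback genes named as readouts of canonical signalling, DKK1 fell, and AXIN2, LEF1, NKD1 and RNF43 were below the filter with at most 76 counts in a library. AXIN2 had 37, 42, 49 and 17 counts, and the knockout libraries lay on either side of the wild-type ones. Its scaled ratio of knockout to wild type was 0.855 (95% exact Clopper-Pearson interval 0.607 to 1.201, counting error only). A gene model on the same strand, AC004805.1, covers 25.2% of its exonic bases and had 0 counts. LEF1 had 62, 66, 76 and 55 counts, a ratio of 1.05 (0.815 to 1.35). NKD1 had 3, 19, 4 and 6 counts, with the high value in wild-type replicate 2 alone. None of the 3 passed without a filter on low values (edgeR adjusted p = 0.65 for AXIN2, 0.908 for LEF1 and 0.297 for NKD1), and none of these values is a statement that the groups are equal.

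The TCF factors, which bring beta-catenin to DNA, had log2 fold changes of at most 0.29. TCF7 was at 1.30 and 1.31 FPKM in wild-type and 1.551 and 1.65 FPKM in knockout libraries and rose (0.29, SE 0.104, edgeR adjusted p = 0.0303). This was the weakest call among the members. It passed under 7 of 16 alternatives and was lost in DESeq2 (adjusted p = 0.108) and without wild-type replicate 1, wild-type replicate 2 or knockout replicate 2 (0.29, 0.29 and 0.24, adjusted p = 0.133, 0.146 and 0.097; 0.021 to 0.498 over its alternatives). TCF7 shares 2.09% of its exonic bases with SKP1 on the opposite strand, which had 2780 to 3298 counts. TCF7L2, the most abundant of the 4 nuclear factors, was at 3.84, 4.09, 4.17 and 5.08 FPKM, with the high value in knockout replicate 2 (0.22, SE 0.101, adjusted p = 0.0835). It passed without knockout replicate 1 (0.37, adjusted p = 0.0039). TCF7L1 was at 2.04, 2.15, 2.08 and 2.09 FPKM (-0.0066, SE 0.123, adjusted p = 0.969), and its groups overlapped.

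**Figure D3:**
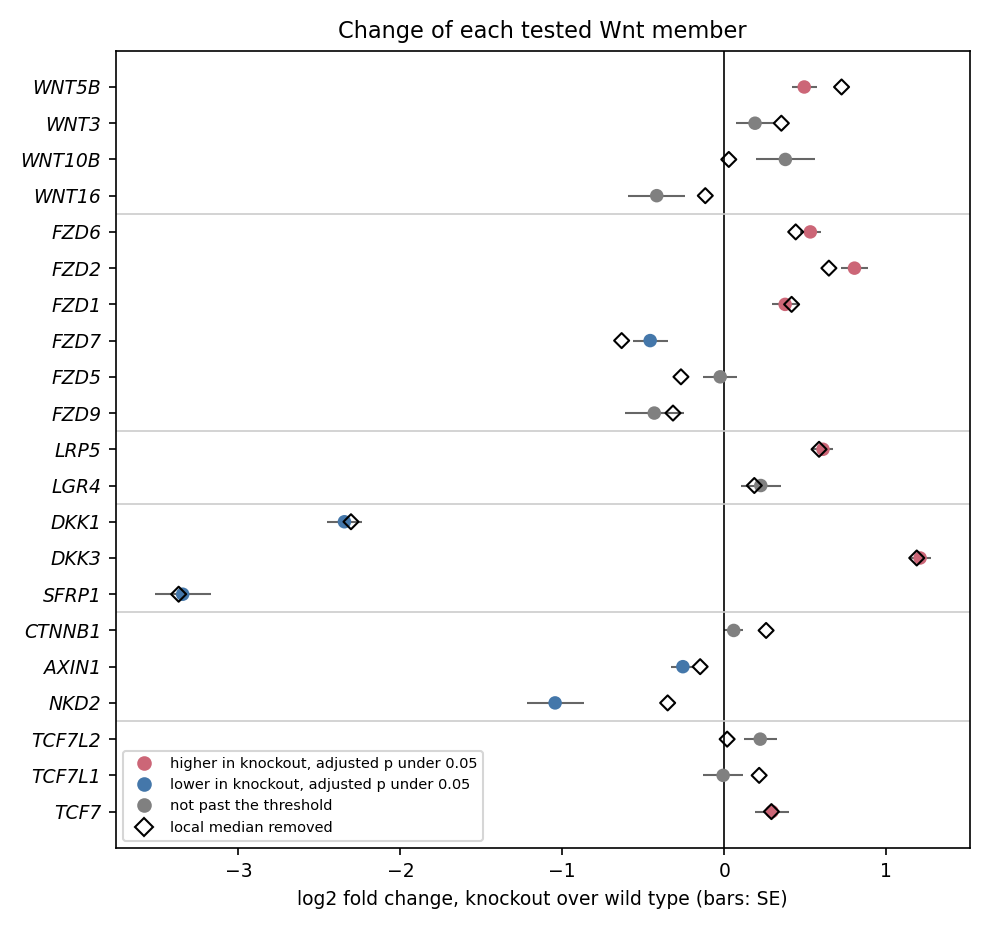
Log2 fold change of knockout over wild type for the 21 tested members (points, with bars for the SE), red where higher, blue where lower and grey where not past an adjusted p of 0.05. Open diamonds give the value with the median of neighbouring genes removed: NKD2 moves from -1.04 to -0.35 and WNT5B from 0.49 to 0.72, while DKK1, DKK3 and SFRP1 stay where they are.

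Levels in these libraries also shifted together along stretches of chromosomes, so each member was read against the median log2 fold change of the 25 tested genes on each side of it (the local median). For DKK1, DKK3, SFRP1 and LRP5 the local median was between -0.04 and 0.04. NKD2, near the end of the short arm of chromosome 5 (hg38, 1008829 to 1038943), had the lowest local median of the 21 tested members (-0.70). AXIN1, on chromosome 16 (287440 to 352673), came to -0.15 (adjusted p = 0.104) against a local median of -0.11. WNT5B, on chromosome 12 (1529891 to 1647243), rose among neighbours that were lower (local median -0.23) and came to 0.72 (adjusted p = 9.13e-06). FZD7, on chromosome 2 (202034587 to 202038445), was lower among neighbours that were higher (local median 0.18) and came to -0.63 (adjusted p = 0.000346). CTNNB1 and WNT3, with local medians of -0.20 and -0.16, came to 0.26 and 0.35 and passed (adjusted p = 0.00299 and 0.0241), and WNT10B and TCF7L2 came to 0.03 and 0.02. With the local median removed 9 members were higher and 3 lower, against 47.4% of all tested genes called. What moves the neighbouring genes was not tested.

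Of the other receptor-side genes in a list of 18, 9 were tested, 5 rose, 0 fell and 4 did not pass (55.6% called, against 50.3% of all tested genes), with a median log2 fold change of 0.24 against 0.00 over all tested genes. The 5 were PTK7, a Wnt co-receptor of the polarity branch (1.88-fold, adjusted p = 1.12e-06), RECK, which acts with ADGRA2 in recognising WNT7 proteins (1.54-fold), ROR2, a receptor for WNT5A (1.44-fold, tested only through the knockout libraries, where it is high), KREMEN1, a receptor for DKK1 (1.30-fold), and RYK, a Wnt-binding receptor (1.18-fold), which came to 0.01 with the local median removed (adjusted p = 0.906). KREMEN1 had the same local median as the targeted gene TTC28 (-0.07), and whether its position bears on its rise was not tested. Of the 9 genes of the list that were below the filter, RSPO4, an R-spondin, was at 0.662 and 0.583 FPKM in wild-type and 0.0132 and 0.0453 FPKM in knockout libraries, and LGR6, an R-spondin receptor, at 0.641 and 0.593 against 0.274 and 0.232 FPKM. Both were lower in both knockout libraries and were not tested, so the count of 0 lower covers the tested genes alone. LRP6, the close relative of LRP5, was at 4.76 FPKM in wild type and 4.61 FPKM in the knockout (-0.05, SE 0.0754, edgeR adjusted p = 0.643), and removing the local median put it at 0.38 (adjusted p = 0.00118). Of 17 genes of ligand processing and other antagonists 6 were tested, 0 rose, 1 fell (TMED5, a cargo receptor of the secretory pathway, -0.23, adjusted p = 0.016, and -0.07, adjusted p = 0.419, with the local median removed) and 5 did not pass. Among these were WLS, which carries Wnt proteins to the surface (37.0 and 33.4 FPKM), PORCN, which attaches their lipid (3.21 and 2.76 FPKM), and TMED2 (40.6 and 37.2 FPKM). Below the filter in this list, TRABD2B was at 0.0380 and 0.0418 FPKM in wild-type and 0.663 and 0.745 FPKM in knockout libraries. WIF1 was at 0.161 and 0.140 against 0.273 and 0.432 FPKM, and NOTUM at 0.569 and 0.413 against 0.772 and 0.637 FPKM. SFRP2 and SOSTDC1 had lower means in the knockout (0.00903 and 0.0383 against 0 and 0.00828 FPKM). None of these was tested, so the count of 0 higher covers the tested genes alone.

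Of 24 tested genes of cytoplasmic transduction, 6 rose, 4 fell and 14 did not pass (41.7% called, against 50.3% of all tested genes), with a median of 0.05. DACT1, which binds Dishevelled, was 1.59-fold higher (adjusted p = 2.74e-05), and the kinase gene CSNK1G2 1.26-fold (adjusted p = 0.00049). Of the Dishevelled genes themselves DVL1 was lower (-0.29, SE 0.0700, adjusted p = 0.00398) and DVL3 higher (0.31, SE 0.0600, adjusted p = 0.000752), but removing the local median brought DVL3 to 0.01 (adjusted p = 0.871). Of 17 tested nuclear cofactors, 7 rose, 2 fell and 8 did not pass (52.9% called), with a median of 0.13. Those with the smallest p were TLE1, a co-repressor of TCF factors (1.49-fold), CTNNBIP1, which keeps beta-catenin off TCF factors (1.46-fold), HBP1, a repressor (1.38-fold), and BCL9, a co-activator of beta-catenin (1.37-fold). The adjusted p-values in edgeR were 8.1e-06, 2.45e-05, 0.000132 and 0.000403. Of 16 tested genes of the planar polarity and calcium branches, 6 rose, 1 fell and 9 did not pass (43.8% called), with a median of 0.12. These shares lay near or below the background. NFATC1, a calcium-dependent transcription factor, was 2.25-fold higher (1.02 and 2.30 FPKM, adjusted p = 1.67e-06), with 1 wild-type library at the filter level. CAMK2G, CAMK2D and NFATC4 were 1.67-fold, 1.40-fold and 1.34-fold higher.

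Of 19 tested textbook targets of beta-catenin, 4 rose and 9 fell (68.4% called, against 50.3% of all tested genes, 25.1% higher and 25.2% lower). Without the Wnt members among them 16 were tested, of which 3 rose, 8 fell and 5 did not pass, with a median of -0.34. The 4 with the smallest p were CLDN1, a tight junction gene (36.1 and 14.0 FPKM in wild type and knockout), MYC, the transcription factor of growth (110 and 46.0 FPKM), SOX9, a transcription factor of progenitor cells (27.8 and 12.4 FPKM), and FOSL1, a subunit of AP-1 (226 and 133 FPKM). The adjusted p-values in edgeR were 4.8e-09, 1.1e-08, 7.24e-08 and 7.3e-07, and both knockout libraries were lower for each. These genes answer to many pathways besides Wnt. SP5, a target more particular to Wnt signals, was at 0.555 and 1.07 FPKM and was called higher (0.95, SE 0.267, adjusted p = 0.00921; 0.67, adjusted p = 0.0529, with the local median removed), while ZNRF3 was at 1.59 and 1.29 FPKM and did not pass (-0.30, SE 0.131, adjusted p = 0.0744). SP5, which is 1 of the 3 counted as rising, was tested only through the knockout libraries, where it is high. SP5 was named after its values were seen, as were RYK, LRP6, ZNRF3, RSPO4, LGR6, TRABD2B, WIF1, NOTUM, SFRP2 and SOSTDC1.

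**Figure D4:**
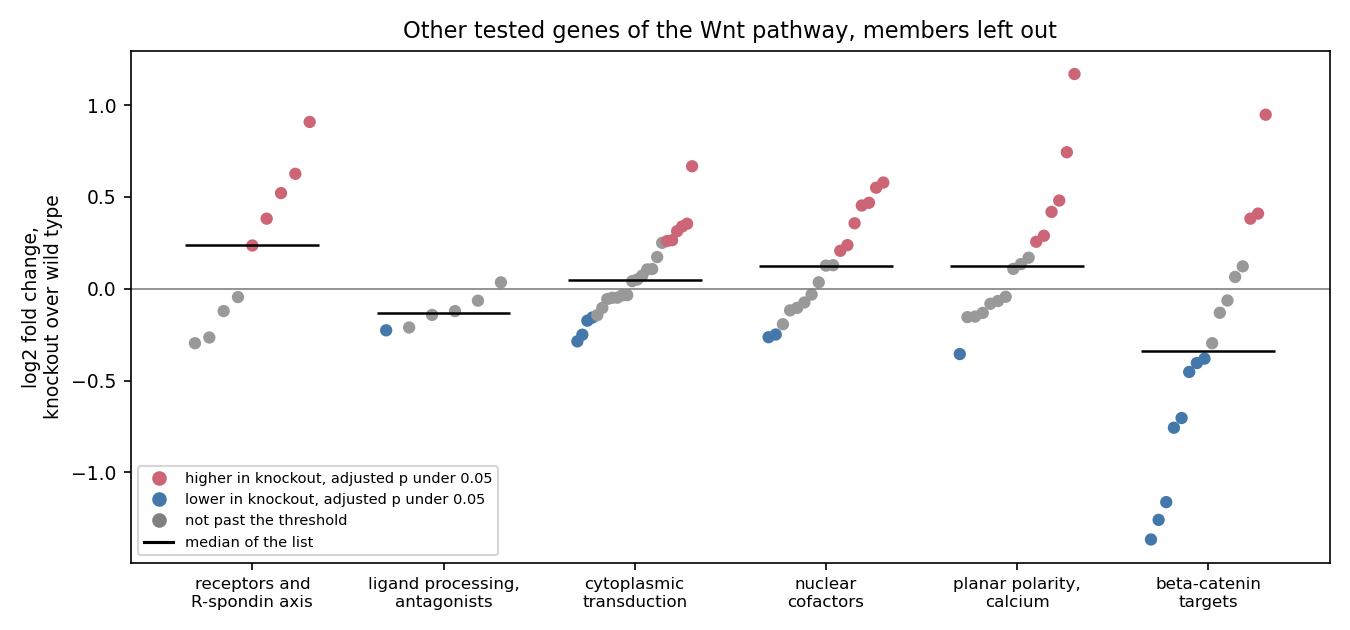
Log2 fold change of knockout over wild type for each tested pathway gene outside the 47 members, in 6 lists, coloured by call, with a black line at the median of each list. Values within a list are ordered from lowest to highest. The medians run from -0.34 for beta-catenin targets to 0.24 for receptors and the R-spondin axis.

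The authors' deposited table of fold changes and adjusted p-values gave the same call, at 0.05, for 20 of the 21 tested members. The exception was TCF7, for which the authors' deposited table listed an adjusted p of 0.190. FZD8, WNT7A and WNT7B, called lower here only without a filter, are outside those 21. The authors' table lists no adjusted p under 0.05 for any of them.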

How the data were processed

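Libraries were made from total RNA of H1299 cells with a TruSeq kit (per the labels' protocols). The submitters' processing notes name HISAT2 2.0.5 and hg38. Which program counted reads, with which strand option and gene models, is not given in the sources read here. In the deposited table each gene has 1 raw count for every library, per the file headers, and FPKM values that the authors made from these counts. The authors' deposited log2 fold change and adjusted p-value were used only for comparison, and their group means of scaled signal were deposited but not used.

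The 13079 genes that reached 1 FPKM in 2 or more libraries were compared by edgeR 4.0.16 (R 4.3.3), in its two-sided quasi-likelihood test with TMM factors and Benjamini-Hochberg adjustment over all tested genes. An exact permutation of 2 against 2 cannot give p under 0.333. The SE of a fold change comes from the same fit (median 0.0886). Intervals of ratios of summed counts are exact Clopper-Pearson intervals at 95% and cover counting error only. Gene coordinates are those of the table, which matched GENCODE release 29 for all 47 members; overlaps and shared 50-base runs are from that release. Alternatives used limma 3.58.1 with pseudocounts of 1 and 0.1, DESeq2 1.42.0, other filters and scalings, removal of the local median, each library left out, and a replicate block. On simulated data edgeR, its robust option, limma, DESeq2 and the local median step were tested; the other scalings and filters and the block were not. Of 100 genes changed by 1 on the log2 scale among 13079, edgeR recovered 90% for knockout against wild type, and 72% of 100 changed by 0.5. DESeq2 recovered 83% and 57%, and limma 84% and 40%. False calls were 6 for edgeR, 0 for DESeq2 and 18 for limma. For the local median step alone, all genes of 1 chromosome were also raised by 0.5 on the log2 scale in the knockout. Otherwise no other genes were changed and as many rose as fell. Every gene had the same biological coefficient of variation (0.0566). In the real data 50.3% of tested genes were called, so recovery and false calls there may differ.

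Every member is named, and from each of 6 further pathway lists the 4 tested non-members with the smallest p, beside those stated in the text. The members, lists and settings were chosen with earlier results of these data known.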

Additional observations from a re-analysis of the deposited data

How the results depend on the processing

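SFRP1, DKK1, DKK3, FZD2, FZD6, FZD7, LRP5 and WNT5B kept direction and call in each alternative in which they were tested. In the report 7 members were higher and 5 lower, with 6581 of all 13079 tested genes called. A filter of 5 FPKM gave 6 higher and 2 lower (9 members tested), with 4346 of all 7490 tested genes called. With no filter 6 were higher and 8 lower (42 members tested), with 7972 of all 30992 tested genes called. FZD8, WNT7A and WNT7B were added to the lower ones there. Removing the local median gave 9 higher and 3 lower, with 6203 of all 13079 tested genes called. Leaving out 1 library gave 6 to 8 higher and 4 to 5 lower, and 4854 to 6456 of all genes. Values that changed sign were all uncalled: CTNNB1 (0.06) came to -0.0065 scaled to total counts and -0.11 on the TPM scale, TCF7L1 (-0.0066) to 0.22 with the local median removed and between -0.0434 and 0.025 with 1 library left out (0.0014 without knockout replicate 1), and FZD5 (-0.025) between -0.0812 and 0.029 (0.012 without knockout replicate 1). FZD9 and WNT16 passed with total-count scaling (-0.50 and -0.48), on the TPM scale (-0.50 and -0.46) and with protein-coding genes only (-0.43 and -0.41), and FZD9 in limma at a pseudocount of 1 (-0.27). What caused these changes of sign and call was not tested. With the replicate number as a block 8 members were higher and 5 lower, and 7108 of all 13079 tested genes were called. TCF7L2 was added (0.22, edgeR adjusted p = 0.0355). Same-numbered libraries did not deviate together over tested genes as a whole (correlation -0.0014, 2 pairs). With 2 pairs, that value cannot exclude a pairing that touches only some genes. AXIN2, LEF1, NKD1 and RNF43 had at most 76 counts in a library, which limits what could be detected for them.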
